A study of Cichorium intybus with 5 samples.

Results

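The data described here are the log2 ratios of C15 d4 vs. C15 d0, the response of the non-embryogenic chicory (Cichorium intybus) genotype C15 to 4 days of somatic embryogenesis (SE) induction. The members are all probes of the deposited table with a value in this comparison, 1169 of the 2112 probes listed. C15 leaves were cut from plantlets grown in vitro for 2 months, and the explants were either frozen without culture (d0) or cultured for 4 days in liquid SE induction medium at 35°C, in darkness and with orbital shaking (d4). No β-D-glucosyl Yariv reagent (β-Glc Y, which binds arabinogalactan-proteins) was present. The same comparison was made in K59, the embryogenic genotype, and in both genotypes d4 explants with 250 µM β-Glc Y were compared with d4 explants without it. C15 is a single genotype obtained by selfing K59, so genotype differences rest on 1 line of each kind. The d0 explants received neither the medium nor the temperature, darkness or shaking, and the effects of these and of excision cannot be told apart.

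In somatic embryogenesis a differentiated cell of a leaf or root returns to division and forms an embryo without fertilization. Leaf mesophyll cells, from which the embryos of chicory arise, are specialised for photosynthesis, and reactivation involves the loss of that specialisation, enlargement of the nucleus and nucleolus, and remodelling of the cell wall. C15 cells start this process and do not reach division. In C15 the comparison of d4 with d0 therefore describes a leaf explant in induction conditions that does not go on to form an embryo.

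Each measurement is a ratio between 2 RNA samples hybridized to the same cDNA microarray, and a log2 ratio of 1 or -1 is a difference of 2-fold. The methods state 3 biological replicates, 6 hybridizations and 12 plants of each genotype per condition, but the deposited table holds 1 value per probe. No spread between replicates, standard error or test can be given, so no difference below is known to exceed the experimental error. The terms up-regulated and down-regulated are used below for log2 ratios of at least 1 and at most -1, and not for the result of a test. These limits are the fold filter of the methods. The authors also applied a false discovery rate limit and Significance Analysis of Microarrays, which could not be repeated here. The counts below are therefore not the study's own calls. A ratio gives no level, so genes are compared only by how much they differed between d4 and d0. The paper states that the arrayed clones were pre-selected from subtractive libraries of K59 against C15 at d4. Shares over all probes therefore describe these selected clones in both genotypes, and not a neutral sample of the transcriptome.

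Past the threshold, the response of C15 was mostly a decrease, although 665 probes had ratios above 0 and 487 below 0. Of the 1169 probes, 97 (8.3%) were down-regulated and 18 (1.54%) up-regulated. The median log2 ratio was 0.06, and 916 probes (78.4%) lay within 0.5 of 0. The 10th percentile was -0.86 and the 90th 0.39, so that the lower tail was the longer one. Among the down-regulated probes, 25 were at or below -2 on the log2 scale, whereas 1 of the up-regulated probes was above 2. The extremes were -4.37 and 2.59. The 5 lowest probes were both clones of the RuBisCO small subunit (N104E4 and E007F11) and the unannotated clones N103E10 (-3.69), E010G3 (-3.35) and E014A4 (-3.06). Close to the threshold, clones E004H8 and N101F9 stood at -1 and N102G5 at 1 on the log2 scale, while 4 clones stood at -0.99 and N102A4 at 0.95.

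**Figure D1:**
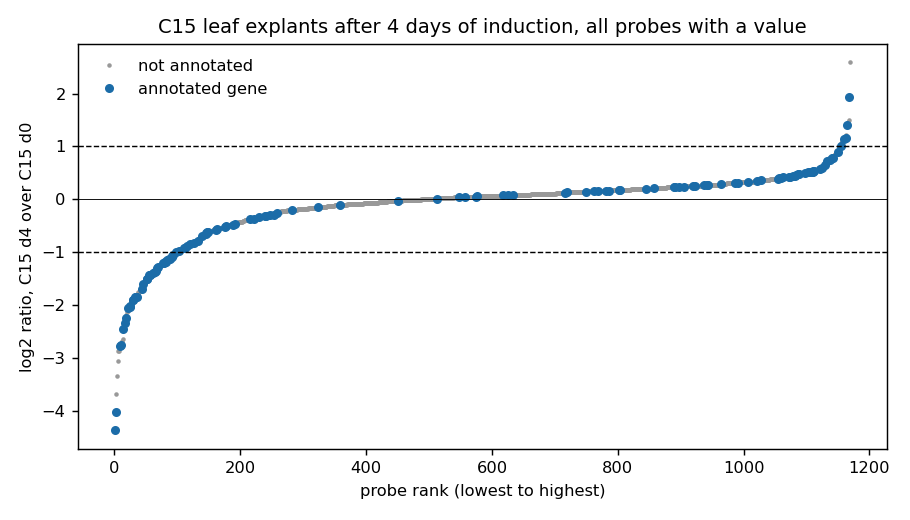
Log2 ratios of C15 d4 over C15 d0 for the 1169 probes with a value (vertical axis), ordered from lowest to highest (horizontal axis), with the 134 annotated genes as large points and the thresholds of 1 and -1 dashed. The lower tail reaches -4.37 and holds 97 probes beyond the threshold, and the upper tail reaches 2.59 and holds 18.

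Gene names were available for 135 clones, of which 134 had a value in C15. The study had chosen these genes on the same hybridizations, so the share of them past the threshold is not a finding. It was 38 down-regulated and 5 up-regulated, and their median was -0.13 on the log2 scale. The other 59 down-regulated and 13 up-regulated probes have no gene name here and could not be assigned a function. The named genes were placed in 14 function classes by their names. The names were not checked against the closest Arabidopsis gene listed for each clone, so a class can hold wrongly named genes. The class medians ranged from -1.93 for photosynthesis to 0.66 for defence peptides, lipid transfer and wounding, beside 0.06 over all probes. All 6 photosynthesis genes and all 5 of the secretory pathway had ratios below 0, and all 8 of the defence class had ratios above 0. The other classes held genes on both sides of 0.

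**Figure D2:**
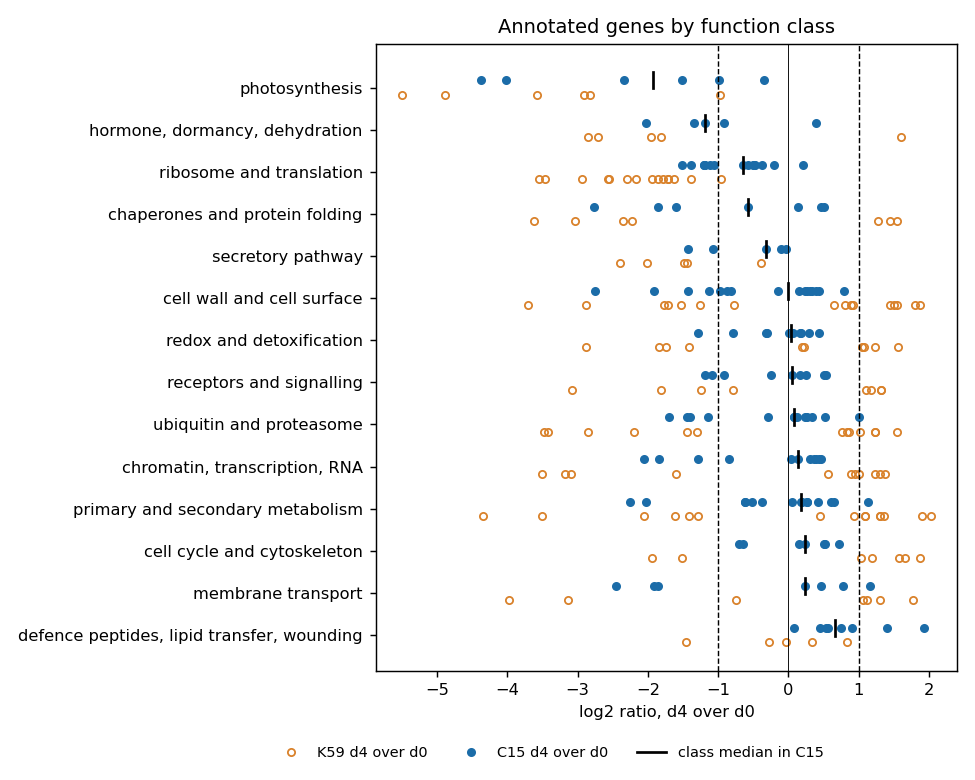
Log2 ratios of d4 over d0 (horizontal axis) for the annotated genes in 14 function classes, in C15 (filled points) and K59 (open points), with the class median in C15 as a black bar and the thresholds dashed. Photosynthesis has the lowest C15 median, -1.93, and the defence class the highest, 0.66.

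The photosynthesis genes had the lowest class median. The RuBisCO small subunit, part of the enzyme that fixes carbon dioxide, was represented by clones N104E4 and E007F11, with log2 ratios of -4.37 and -4.02 in C15. These correspond to transcript signals 20.7-fold and 16.2-fold lower at d4 than at d0. The photosystem I chain II gene (E008D3), which encodes a subunit of the light-driven electron transport complex, stood at -2.34. CP12 (E003D4), a small regulator of the Calvin cycle, stood at -1.51. The chlorophyll a/b-binding protein type III gene (E008F9), an antenna protein, had -0.99 and missed the threshold, and a photosystem I reaction center subunit (E008D9) had -0.34. All of them had a lower ratio still in K59, from -5.50 for N104E4 to -0.97 for E008D9. With β-Glc Y the 6 genes stayed between -0.20 and 0.48 in C15. In explants of mixed tissue, fewer mesophyll cells and less RNA per cell cannot be told apart. The 6 genes served as markers of leaf mesophyll, but a ratio cannot show their level at d4, and no list of markers of other leaf cell types was used.

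Among the genes of membrane transport, the water channels and the sucrose carrier were low and the others were at or above 0. Clones E001G4 and E014D12, both of the MIP (aquaporin) family of water channels, had log2 ratios of -2.46 and -1.91. The sucrose transporter SUT1 (E001F2), which loads sugar into the phloem, had -1.85 in C15 against -0.75 in K59. It is 1 of 8 down-regulated probes with a lower ratio in C15 than in K59, whereas the other 86 with both values were lower in K59. The opposite end of the class was the voltage-dependent anion channel of the mitochondrial outer membrane (E010D10), up-regulated at 1.16 in C15 and 1.78 in K59. The zinc transporter ZIP4 (E016G6) had 0.78, the glycerol-3-phosphate transporter (E006E10) 0.46 and amino acid permease 6 (E002B7) 0.24, none past the threshold.

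In the translation class, 7 of 15 genes were down-regulated and 14 of 15 had ratios below 0, beside 8.3% of all probes and 28.4% of the annotated genes down-regulated in C15. The factors and associated proteins stood lower than the ribosomal proteins. Of 7 genes of the first kind, 6 were down-regulated, with a median of -1.18 on the log2 scale, and of 8 ribosomal protein genes 1 was, with a median of -0.48. Elongation factor 1 alpha (E001D9), which brings aminoacyl-tRNA to the ribosome, had -1.51, and elongation factor 2 (E014E12), which moves the ribosome along the message, had -1.20. The TCTP clone (E017A2) also had -1.20. The initiation factors B04 (E014G12) and 5A (N101B4) had -1.18 and -1.12, and the poly(A)-binding protein (E006G5) had -1.06. The alpha subunit of the nascent polypeptide-associated complex (A025F3) was the exception, at -0.51. Among the ribosomal proteins, the acidic protein P0 (E005A8) had -1.38 and the others ranged from -0.65 for S2 (E015B3) to 0.21 for L10 (E001G12). Down-regulated in K59 were 23.4% of all probes with a value and 65 of the 130 annotated genes, whose median was -1.105. The 8 ribosomal protein genes had a K59 median of -1.82, and 7 of them were down-regulated there. The gap between the genotypes in these genes was not tested.

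Of the 7 chaperone and folding genes, 3 were down-regulated and none was up-regulated in C15, beside 8.3% and 1.54% of all probes. Among the annotated genes these shares were 28.4% and 3.73%. The 3 down-regulated genes were of the Hsp70 group, ATP-dependent chaperones that bind unfolded polypeptides and in many plants accumulate on heating. Their log2 ratios were -2.77 for the cognate HSC70 (E016H11), -1.85 for a dnaK-type chaperone (E004A3) and -1.60 for HSP70 (E012D5). Cyclophilin (E016D9), a protein that speeds the folding of peptide bonds at proline, had -0.57. The chaperonins, barrel-shaped folding complexes, were slightly above 0 with 0.14 for E017B4 and 0.47 for the cpn60 clone E007B3, and a peptidylprolyl isomerase (E009E8), of the same activity as cyclophilin, had 0.51. In K59 the chaperonins and this isomerase were above the threshold, at 1.45, 1.28 and 1.54.

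The ubiquitin pathway, which tags proteins for degradation by the proteasome, was represented by 13 genes with a median log2 ratio of 0.08. All 4 genes of ubiquitin itself and of its conjugating enzymes were down-regulated in C15, beside 8.3% of all probes and 28.4% of the annotated genes. Polyubiquitin had log2 ratios of -1.70 (N102D1) and -1.44 (E017D10), the conjugating enzyme UBC9 (E015H1) -1.40 and another conjugating enzyme (E010G5) -1.15. The proteasome subunits were close to the bulk of the probes, with 0.08 for RPT5a (E017E4), 0.27 for the alpha subunit B (N102E10) and 0.33 for subunit RPT6 (E001E6). Among the 6 RING, F-box and E3 genes, which choose the proteins to be tagged, 5 lay between -0.29 and 0.52, among them the C3HC4-type RING finger clones E017B3 (0.24) and E014H11 (0.08). The remaining one, an E3 ubiquitin ligase (N104F8), was up-regulated at 1.01 in C15 and stood at -1.44 in K59.

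The cell wall and cell surface class held 4 down-regulated genes of 16 and no up-regulated gene. The down-regulated share was 8.3% over all probes and 28.4% over the annotated genes, so the class did not stand out among named genes. An extensin-related protein (E001A11), named for a family of hydroxyproline-rich structural glycoproteins, had a log2 ratio of -2.75. Expansin 2 (E011A7), a wall-loosening protein, had -1.91 in C15 and -1.72 in K59. The arabinogalactan-protein (AGP) clone E005B11, a proteoglycan core, had -1.43 in C15 and 1.55 in K59. An H-rich protein (E011A6) had -1.13. Phenylalanine ammonia-lyase (PAL, E003G7), the entry to phenylpropanoid synthesis, had -0.98, endoxyloglucan transferase (E004D1), which cuts and rejoins xyloglucan, -0.88, and a glycine-rich protein (E015F12) -0.82. A clone of the same name (E017F4) had 0.27, so glycine-rich proteins lay on both sides of 0. The highest member was a pectinesterase (E007B4) at 0.79, an enzyme that removes methyl groups from pectin. Polygalacturonase inhibiting protein (E012E7) had 0.44, another expansin (E017D6) 0.34 and a polygalacturonase (E012H2) 0.15. The mucin-like (E012B9), heparanase-like (E011F4) and mucin-related (E011H10) clones had 0.40, 0.31 and 0.24. The extracellular dermal glycoprotein (E010H12) is the 1 named gene with no value in C15 d4 vs. d0.

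Defence peptides and related small secreted proteins stood highest. Snakin 2 (SN2, clone N104F11), a cysteine-rich antimicrobial peptide, had a log2 ratio of 1.93 in C15, 3.81-fold higher at d4. Defensin SD2 (N102D12), of another family of antimicrobial peptides, had 1.40. The protease inhibitor clone similar to ZePI2 (N101E12) stood just under the threshold at 0.90, and none of these 3 has a value in K59 d4 vs. d0. The lipid transfer protein SDI-9 (E009A6) had 0.75 in C15 and -1.45 in K59, while DEA1 (E002A7), of the same broad family, had 0.08 and -0.28. A serine-type endopeptidase inhibitor (E017B9) had 0.57, VSP (N101E4), named for vegetative storage proteins, 0.53, and a wound-responsive family protein (E017H3) 0.45. All 8 genes lay above the median of all probes, with 2 of them past the threshold, beside 1.54% of all probes and 3.73% of the annotated genes up-regulated. The study chose the named genes on these same hybridizations, and the 2 past the threshold have no K59 induction value. The count therefore describes these genes and is no support for a response of the class.

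In the nucleus and RNA class, RNA binding protein A (E010F6) had a log2 ratio of -2.06, histone H2A (A025C4) -1.84 and the splicing protein SmD1 (E004C10) -1.28. The CCR4-associated factor (E005A3), of a complex that shortens poly(A) tails, had -0.85. The other 7 genes, among them histone acetyltransferase HAT B (E013B9, 0.43) and the DEAH-box helicase (E006F5, 0.47), lay between 0.04 and 0.47. The cell cycle class of 7 genes held no down-regulated and no up-regulated gene in C15. The shares were 8.3% and 1.54% over all probes, and 28.4% and 3.73% over the annotated genes. With so few genes, this is not a result about the class. Its values ran from -0.70 for profilin (E008B12), an actin-binding protein, to 0.72 for a meiosis specific topoisomerase (E012G3). The replication licensing factor MCM3 (E016H3), needed to start DNA synthesis, had 0.23 in C15 and 1.19 in K59. Kinesin 10 (E016B4), a microtubule motor, had 0.50 and 1.04.

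Calcium and protein kinase signalling included calmodulin (E004F10) at -1.18, the protein kinase C receptor (E002A1) at -1.09 and a 14-3-3 protein (E010A10) at -0.92. The highest gene of that class was the nuclear receptor clone E002E12 at 0.53. Among hormone and dormancy genes, the dormancy-associated protein (A025D6) had -2.02, the dehydration-induced protein ERD15 (N101H8) -1.35 and ACC oxidase (N104E3), the last enzyme of ethylene synthesis, -1.18. S-adenosylmethionine synthetase (E008B1), which supplies the precursor of ethylene, had -0.92, and ZOG1 (E011A2), named for a zeatin glucosyltransferase that inactivates cytokinin, 0.40. In the secretory pathway the endoplasmic reticulum protein (A025A9) had -1.43 and ARF1 (E011E1), a GTPase of vesicle budding, -1.07, while the coat protein beta-COP (E009D1) had -0.03.

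Metabolic genes spanned the range. Dihydroflavonol reductase (E001H2), of flavonoid synthesis, had a log2 ratio of -2.25 and malate dehydrogenase clone N101C1 -2.03. HMG-CoA reductase (E011F11), of the mevalonate pathway, had -0.52. L-lactate dehydrogenase (E017E2), which regenerates NAD+ when respiration is limited, was up-regulated at 1.14 in C15 and 2.03 in K59. Of the 10 redox genes, metallothionein 1 (N104E6), a metal-binding protein, had -1.29. The others lay between -0.79 for a peroxidase (E013D3) and 0.43 for polyphenol oxidase (E017A6). The paper reports a metallothionein-1 gene lowered by induction in K59 and not in C15, and raised by β-Glc Y in both. Clone N104E6 differed, with -2.88 in K59 and -0.97 with β-Glc Y in each genotype. Whether it is the gene of the paper was not determined. The quinone reductase clones E017C3 and E006H4 had 0.01 and 0.18.

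**Figure D3:**
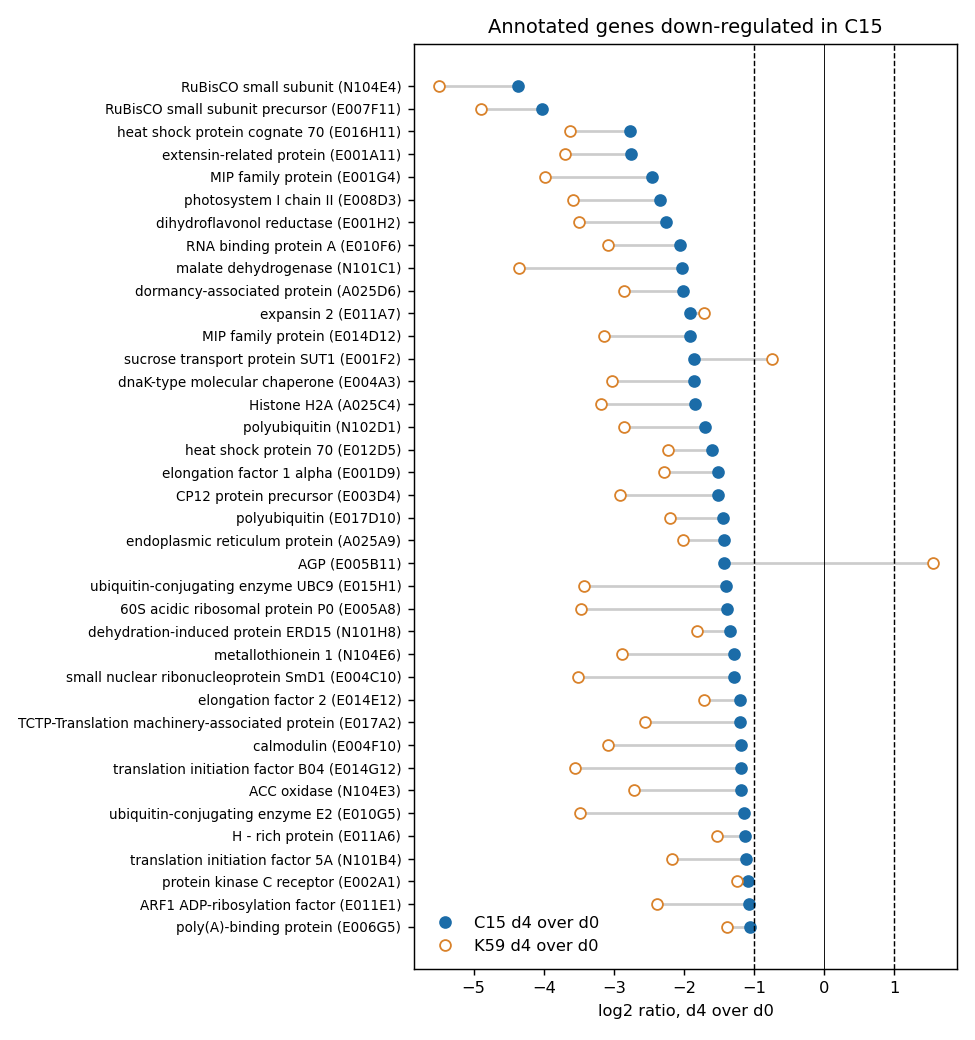
The 38 annotated genes down-regulated in C15, ordered by their C15 log2 ratio of d4 over d0 (filled points, horizontal axis), with the K59 ratio of the same clone (open points) joined by a line and the thresholds dashed. The K59 point lies to the right for SUT1 (-0.75), expansin 2 (-1.72) and the AGP (1.55), and to the left for the other 35.

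The 18 up-regulated probes were few and mostly close to the threshold, 15 of them below 1.5 on the log2 scale. The highest was clone N103H10 at 2.59, 6.02-fold higher at d4, followed by snakin 2 at 1.93 and clone E015C7 at 1.5. Neither N103H10 nor E015C7 has a gene name here. Clones E014D1 (1.46), E009H4 (1.40), E013B12 (1.21), E010C5 (1.16), E017E1 (1.15) and E012H9 (1.10) followed beside defensin SD2, the anion channel and lactate dehydrogenase. The rest were E013E8 (1.09), E005A11 (1.08), E002G12 (1.07), E001C12 (1.01), the E3 ubiquitin ligase N104F8 (1.01) and N102G5 (1). Of the 18, 10 had a value in K59. There 6 of the 10 were also up-regulated, 3 were down-regulated (E009H4, E012H9 and N104F8) and E014D1 stood at -0.38. Over all probes with a K59 value, 17.3% were up-regulated and 23.4% down-regulated in K59. The 3 down-regulated probes of 10 are near that share and are not a result about the set.

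The comparison of C15 with and without β-Glc Y used C15 d4 explants without the reagent as its denominator, and these are the numerator of the induction ratio. Because of this shared RNA the values are given side by side and no relation is drawn between them. With β-Glc Y, N103H10 had a log2 ratio of -1.26 and snakin 2 -1.35. Clones E014D1 and E002G12 stood at -1.30 and -1.23, the anion channel at -0.92 and E009H4 at 1.07. The other up-regulated probes measured there lay between -0.25 and 0.40. The 91 down-regulated probes with a β-Glc Y value in C15 ranged from -1.78 to 0.77.

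**Figure D4:**
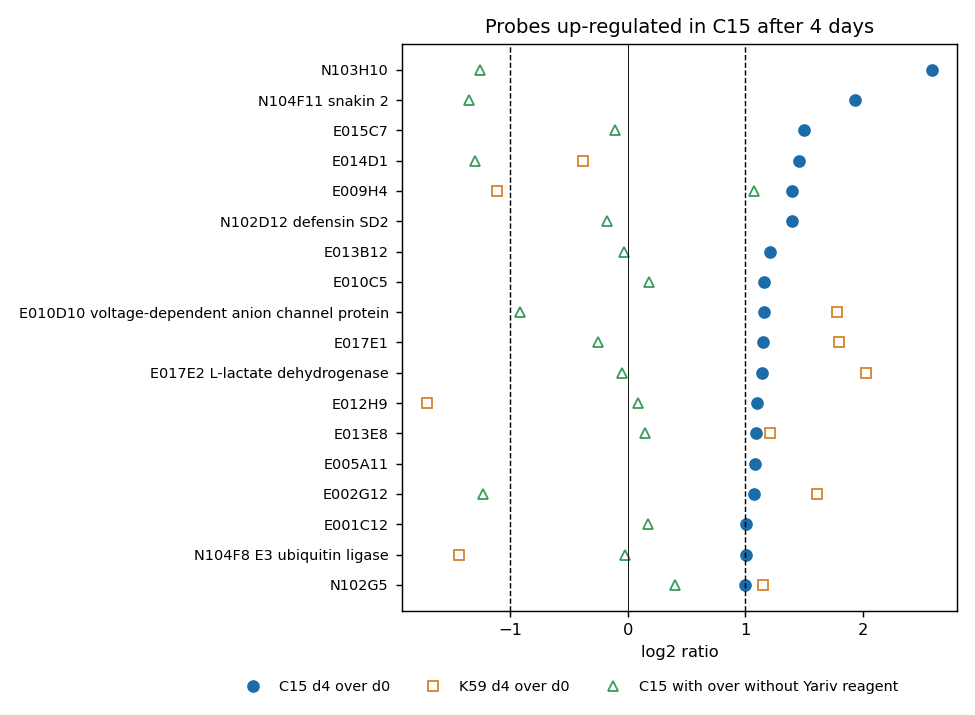
Log2 ratios (horizontal axis) of the 18 probes up-regulated in C15 after 4 days, in C15 d4 over d0 (circles), K59 d4 over d0 (squares, where a value exists) and C15 with over without β-Glc Y (triangles), with the thresholds dashed. N103H10 is highest at 2.59, and 8 of the 18 have no K59 value.

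A further 358 probes had a value in C15 but not in K59 d4 vs. d0. This subset differed in shape from the 811 probes measured in both. Of the 358, 8 (2.23%) were up-regulated and 3 (0.838%) down-regulated, against 10 (1.23%) and 94 (11.6%) of the 811. Their median log2 ratio was 0.11, against 0.01. The authors removed saturated, low-signal and dye-inconsistent spots before deposit, and which of these filters took a given K59 value is not given in the sources used here. The 3 down-regulated clones without a K59 value were E006A1 (-1.56), A025B2 (-1.42) and E001D7 (-1.10), none of them named. Of the named genes only 4 belong to this subset, snakin 2, defensin SD2, the ZePI2-like inhibitor and a protein kinase family protein (E001C5, -0.25).

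Set against K59, which shares no RNA with this comparison, the C15 response was graded on the low side and nearly flat on the high side. The 50 probes below -3 in K59 were all down-regulated in C15, with a median log2 ratio of -1.89 there and -3.54 in K59. For the 48 probes between -3 and -2 in K59 the C15 median was -1.19, and for the 90 probes between -2 and -1 it was -0.36. On the other side, the 124 probes between 1 and 2 in K59 had a C15 median of 0.25, and the 20 probes at or above 2 had 0.32. Of these 20 probes, 19 were above 0 in C15 and 1 reached the threshold. In all, 88 of 188 probes down-regulated in K59 (46.8%) were also down-regulated in C15, and 6 of 144 up-regulated in K59 (4.17%) were also up-regulated in C15. The matching shares in C15 over the 811 probes with both values were 11.6% down-regulated and 1.23% up-regulated. In K59 itself, 23.4% of all probes with a value were down-regulated and 17.3% up-regulated. These are descriptions across probes of the pre-selected clones, several of which may come from the same gene.

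**Figure D5:**
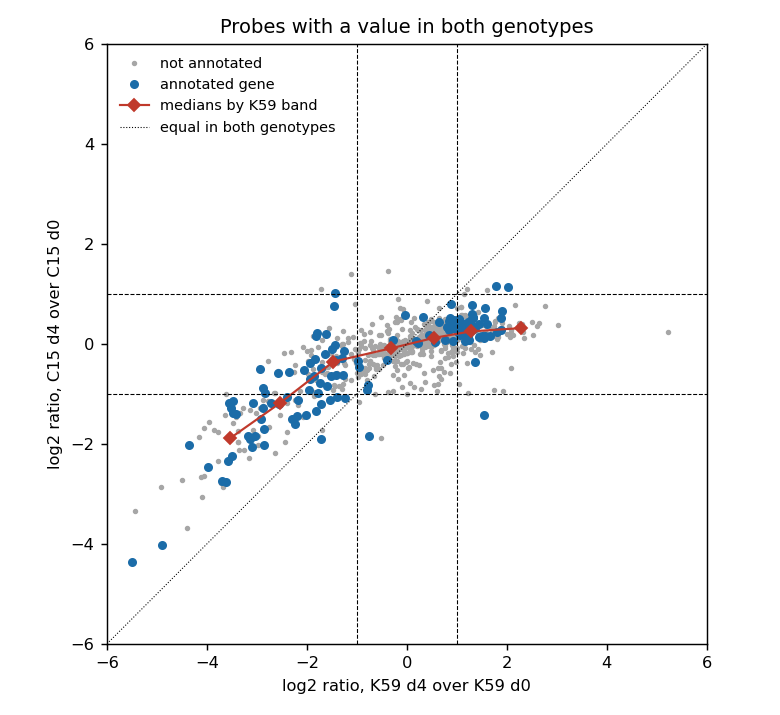
Log2 ratio of d4 over d0 in C15 (vertical axis) against K59 (horizontal axis) for the 811 probes with both values, with annotated genes as large points, medians within bands of the K59 ratio as diamonds, equality dotted and the thresholds dashed. The C15 medians run from -1.89 in the lowest band to 0.32 in the highest.

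Clones listed with the same closest Arabidopsis gene gave a limited view of how far separate probes of like sequence varied. The RuBisCO small subunit clones (AT5G38410) differed little in C15, at -4.37 and -4.02 on the log2 scale. The Hsp70 clones (AT3G12580) stood at -2.77 and -1.60. One more hit, AT1G79750, is listed for 4 clones with different names, and their ratios differed. They are malate dehydrogenase N101C1 (-2.03) and E006E2 (0.26), NADH-cytochrome b5 reductase (E006G1, 0.05) and TCTP (-1.20, with a second hit listed), so their names are uncertain. The names of the other clones were not checked against their hits and can be uncertain too. PCR fragments of cDNA can also hybridize with close relatives of a gene, which applies to the RuBisCO, Hsp70, polyubiquitin and ribosomal protein families.

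The position of clones in the collection was uneven. The 22 plates carry names that start with A, E or N, a letter whose meaning is not given in the sources used here. Up-regulated in C15 were 5 of 176 probes on N plates (2.84%), with 24 (13.6%) down-regulated, against 13 (1.35%) and 67 (6.94%) of 965 on E plates and 0 and 6 (21.4%) of 28 on the A plate. In K59 the up-regulated share was lower on N plates (9.62%) than on E plates (18.5%). N103H10, snakin 2 and defensin SD2 come from N plates. A value was present in C15 for 59.1% of clones on E plates and 45.8% on N plates.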

How the data were processed

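RNA of C15 and K59 leaf explants was compared on 2-colour cDNA microarrays. The authors quantified spots with GenePix Pro, discarded saturated, weak or artefactual ones, subtracted background from the median intensities, normalized each slide in R (global lowess, then the median of each print-tip group) and dropped probes whose dye swaps disagreed in sign. The deposited log2 ratios result from these steps and were used unaltered. How hybridizations became 1 value is not stated. No intensity was used, so precision cannot be derived, and the small number of arrays limits it.

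Direction follows the labels (d4 first, d0 second). It was checked against the column of Additional file 2 headed C15d4/C15d0 (r = 0.951 across 134 genes). The K59 d0 vs. C15 d0 column, which shares C15 d0 RNA, correlates with the C15 column at r = -0.523 over 491 probes. Its direction is not settled and it was not used further.

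Probes at or beyond 1 or -1 were counted, and no test was possible with 1 value per group. Names come from Additional file 2, matched by clone (135 of 135). The text names every up-regulated probe, every annotated gene at or below -1, the 5 lowest probes, the highest and lowest gene of each class and clones sharing a name or hit. Other genes, and unannotated clones at the threshold or without a K59 value, were added to describe their groups. The members, classes and lists were chosen with earlier results of these data known. Thresholds of 0.95 and 1.5, median and plate-median subtraction, and restriction to probes with a K59 value or with all 5 values were tried. Counting was tested on simulated data. Tools were matplotlib 3.10.9, scipy 1.17.1, pandas 2.3.3 and numpy 2.4.6 under Python 3.11.15.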

Additional observations from a re-analysis of the deposited data

Results flagged for a closer look

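The threshold was passed on opposite sides in C15 and K59 by 4 probes. With a single value on each side, the difference was not tested. As C15 minus K59 on the log2 scale it was -2.98 for the AGP clone E005B11, 2.51 for E009H4, 2.81 for E012H9 and 2.45 for the E3 ubiquitin ligase clone N104F8. Subtracting the median of the comparison put N104F8 at 0.95 in C15, and subtracting plate medians put E012H9 at 0.95, both under the threshold. Clone E009A9, at -0.99 in C15 and 1.23 in K59, fell just short of joining them.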

How the results depend on the processing

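With a threshold of 1.5 the counts in C15 were 52 down-regulated and 3 up-regulated probes, 1 and 3 of these without a K59 value, 19 and 1 annotated genes, and 2 up-regulated probes on N plates. Up-regulated probes numbered 10 with a K59 value required and 6 with all 5 values required. Subtracting the median of the comparison left 3 up-regulated probes on N plates instead of 5. All counts stayed within 1.5 times at a threshold of 0.95 and after subtracting plate medians. Every class median stayed within the spread of its class when the median was subtracted or only genes with a K59 value were used. Subtraction moves every class median by the same 0.06, so it is no test of the classes. Requiring a K59 value changed only the medians of the defence class and of the receptor and signalling class. Of 206 named or called values, 5 crossed the threshold after subtracting the median and 5 after subtracting plate medians, among them the chlorophyll a/b-binding protein E008F9 at -1.05 in both and PAL (E003G7) at -1.04 in the first. No paired analysis was possible because each comparison holds 1 value per probe. For the same reason no replicate could be left out. The 5 values that crossed after subtracting the median lay within 0.06 of the threshold, the amount by which every value moved. Why plate medians differ was not tested.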
